A study of Mus musculus with 4 samples.

Results

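Expression of 10 transcription factor genes that pattern the upper jaw or its surroundings in the branchial arches (*Pou3f3*, *Lhx8*, *Isl1*, *Irx3*, *Irx5*, *Nr2f1*, *Nr2f2*, *Sim2*, *Uncx* and *Hmx1*) was examined on Affymetrix GeneChip mouse genome arrays. All 10 genes had a probe set, the group of short probes that reports 1 transcript, and 18 probe sets were annotated to exactly 1 of these symbols, of 34945 probe sets with a single symbol and 18193 genes. One further probe set, annotated to *Pou3f3* and a second symbol together, was left out by this rule. The study placed extra *Hand2* in the neural crest and asked what this does to jaw identity. Mutant embryos (genotype *Hand2* CAT/+; *Wnt1-Cre*, here Hand2NC) carried a transgene in which a floxed CAT cassette keeps *Hand2* silent until *Wnt1-Cre* removes it, so that *Hand2* is overexpressed in cells of the *Wnt1-Cre* lineage. Wild-type embryos of the same mixed C57BL/6J x ICR background were the controls. Each genotype was measured at embryonic day (E) 11.5 and E12.5. The labels give the tissue as whole body at the earlier stage and as head at the later. RNA was pooled, and each of the 4 groups is 1 array, so no difference below has a replicate check and no p-value was computed. The Cre acts in the neural crest lineage, whereas the RNA came from all tissues of the head or body.

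The upper and lower jaws form from the maxillary and mandibular parts of the first branchial arch, whose mesenchyme is mostly neural crest. Endothelin signalling in the mandibular part turns on *Dlx5* and *Dlx6* and then *Hand2*, a basic helix-loop-helix (bHLH) factor, whereas the maxillary part lacks *Hand2* and expresses regulators such as *Pou3f3*. None of the 10 factors is confined to the arches: each is also used in the brain, the sense organs, the ganglia or the trunk, so in RNA of a whole head or body the arch supplies only a portion of the signal.

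bHLH factors bind the E-box, written CANNTG, and RefSeq (GRCm38.p6) promoter sequence was available for 8 of the 10 genes, as up to 250 bases before the annotated start. *Irx5* and *Sim2* had no entry. The 3 promoters below are shown because these genes had the highest ratio of head to whole-body signal (*Lhx8*), the lowest Hand2NC to wild-type ratio at E12.5 (*Uncx*) and the highest (*Hmx1*). Each is read 5′ to 3′ on the strand of its gene, and capitals mark an E-box. The *Lhx8* stretch lies on the minus strand at chr3:154330561-154330810, the *Uncx* stretch on the plus strand at chr5:139543648-139543864 and the *Hmx1* stretch on the plus strand at chr5:35388611-35388779.
Lhx8: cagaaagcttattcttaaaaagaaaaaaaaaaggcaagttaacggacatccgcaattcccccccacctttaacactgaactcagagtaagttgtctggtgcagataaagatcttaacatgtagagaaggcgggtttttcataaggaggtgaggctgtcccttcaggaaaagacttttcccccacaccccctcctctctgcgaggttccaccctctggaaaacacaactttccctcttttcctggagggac
Uncx: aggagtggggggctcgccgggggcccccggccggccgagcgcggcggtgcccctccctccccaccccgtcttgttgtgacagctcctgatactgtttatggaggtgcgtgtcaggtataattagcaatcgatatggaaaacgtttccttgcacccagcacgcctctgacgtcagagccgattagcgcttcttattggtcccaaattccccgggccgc
Hmx1: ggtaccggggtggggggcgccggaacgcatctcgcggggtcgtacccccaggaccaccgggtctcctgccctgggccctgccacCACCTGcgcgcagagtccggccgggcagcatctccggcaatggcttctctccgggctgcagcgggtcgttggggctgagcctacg
*Hmx1* held 1 E-box, CACCTG, and the other stretches held none. Over the 8 promoters, 3 held an E-box (CAGCTG in *Isl1*, CAATTG in *Nr2f2* and CACCTG in *Hmx1*), against 66.2% of all mouse promoter windows of 250 bases, 61.7% of windows of 217 bases and 53.3% of windows of 169 bases. The E-box CATCTG, or CAGATG on the other strand, was in 0 of the 8, against 14.4% of windows of 250 bases. These matches describe letters in short windows and say nothing of binding elsewhere in or around the genes.

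The arrays were first checked for genotype and tissue. *Hand2* by probe set 1422221_at gave scaled signals of 67.1 in wild-type and 314 in Hand2NC at E11.5, and of 33.4 and 706 at E12.5, log2 ratios of 2.23 and 4.40. The brighter *Hand2* probe set, 1436041_at, gave 1214 and 1244 at E11.5 and 592 and 839 at E12.5, log2 ratios of 0.04 and 0.50. Trunk RNA was plain on the E11.5 arrays, for which a legend of the study speaks of heads: *Alb* of the liver was at 9010 and 8530 there and at 29.1 and 33.7 on the head arrays, and *Hoxa10* of the hindlimb and posterior trunk was at 740 and 775 there and at 5.87 and 8.48 on the head arrays. The Y-linked *Kdm5d* was at 578, 535 and 677 on both E11.5 arrays and the wild-type head array but at 8.72 on the Hand2NC head array, so the head pools also differed in the sex of the embryos, and its part in the E12.5 differences was not tested.

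All 10 genes passed the signal filter used for the comparisons, although by different margins. The deposited values hold no detection calls, so detection itself was not assessed. Signals below are MAS5 signals, a linear intensity that the authors computed per probe set, after scaling each array to the same trimmed mean of 500, and they are given in the order wild-type E11.5, Hand2NC E11.5, wild-type E12.5 head, Hand2NC E12.5 head. A probe set was counted in a comparison if the brighter of its 2 arrays was at or above the median signal of that array, which lay between 97.2 and 106. Of the 18 probe sets, 15 passed in each of the 4 comparisons, and each of the 10 genes was represented. The brightest probe set of each gene ranged from the array median (*Sim2* in Hand2NC at E11.5) up to the 98.4th percentile (*Nr2f1* in the wild-type head). Beside each log2 ratio stands the local spread, the robust standard deviation of the ratio over the 500 probe sets of nearest signal in the same comparison. Both noise and true differences enter it, and it serves only as a yardstick in the absence of replicates. In RNA of whole heads or bodies, a lower signal from fewer cells that express a factor and from less of its RNA per cell cannot be told apart.

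**Figure D1:**
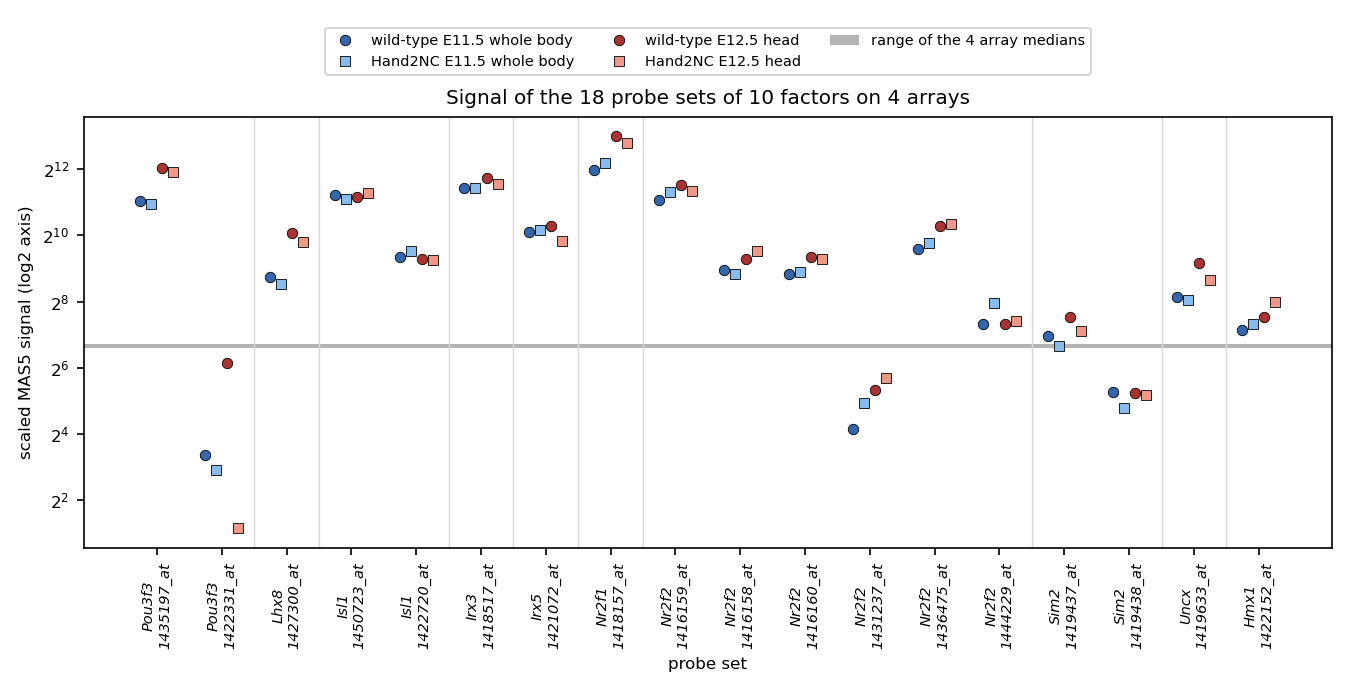
Scaled MAS5 signal (log2 axis) of the 18 probe sets of the 10 genes on the 4 arrays, 1 array per point. Colour and shape mark the array, with circles for wild-type and squares for Hand2NC, and a grey band spans the 4 array medians. By the brightest probe set of each gene, the wild-type head array was highest for 8 genes and the Hand2NC head array for *Hmx1* and *Isl1*. The share of all genes with this order was not computed.

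The members for which the maxillary role is best known were examined first. *Pou3f3* encodes a POU domain factor needed for derivatives of the maxillary arch and is also expressed in cortical progenitors and other parts of the brain, in the otic region and in the developing kidney. By probe set 1435197_at its signals were 2079, 1974, 4226 and 3872. Both head arrays stood clearly above both whole-body arrays, and the genotypes lay close together at each stage. Hand2NC against wild-type gave a log2 ratio of -0.08 (local spread 0.13) at E11.5 and -0.13 (0.09) at E12.5. Head against whole body gave 1.02 (0.32) in wild-type and 0.97 (0.28) in Hand2NC. The other *Pou3f3* probe set, 1422331_at, read 10.3, 7.48, 71.2 and 2.23, all below the array median, and it was not counted in any comparison. The probe set shared with a second symbol, 1429857_at, gave 295, 281, 681 and 498, in the same order of arrays as the bright one.

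*Lhx8* encodes a LIM homeodomain factor of the palate, tooth and oral mesenchyme of both parts of the arch, and it is also needed in the basal forebrain, where cholinergic neurons depend on it. Its single probe set, 1427300_at, gave 432, 369, 1069 and 895. The 4 arrays thus fell into a low whole-body pair and a high head pair, with Hand2NC the lower within each. Between genotypes the log2 ratio of Hand2NC to wild-type was -0.23 (0.18) at E11.5 and -0.26 (0.16) at E12.5, so that *Lhx8* exceeded its local spread below wild-type at both stages. Head against whole body gave 1.31 (0.36) in wild-type and 1.28 (0.34) in Hand2NC, or 2.48-fold and 2.43-fold.

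*Isl1* encodes a LIM homeodomain factor that is found in the pharyngeal and oral epithelium and the endoderm, and away from the arches in motor neurons, sensory and sympathetic ganglia, the retina, the heart precursors of the second heart field, the hindlimb and the pancreas. The brighter probe set, 1450723_at, gave 2360, 2212, 2283 and 2465, and the dimmer, 1422720_at, gave 657, 740, 622 and 606. The 4 arrays were nearly level by both probe sets, and the order of the genotypes was opposite between the probe sets at each stage. The log2 ratio of Hand2NC to wild-type was -0.09 (0.12) and 0.17 (0.17) at E11.5, where the second lay just beyond its spread, and 0.11 (0.11) and -0.04 (0.16) at E12.5. Head against whole body gave -0.05 (0.30) and -0.08 (0.36) in wild-type, and 0.16 (0.26) and -0.29 (0.30) in Hand2NC. Of 9 motor neuron genes with a probe set only 3 passed the filter, with a median log2 ratio of Hand2NC to wild-type of 0.41 at E11.5 (3 of 3 higher beyond the local spread) and -0.12 at E12.5 (0 of 3 beyond it), and the summed signal of the 9 was 532, 673, 731 and 691. Over all genes, 16.0% were higher beyond the spread at E11.5, and 16.4% were higher and 16.6% lower at E12.5. The part of motor neurons in the *Isl1* signals was not tested.

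*Irx3* and *Irx5* encode homeodomain factors of the Iroquois class and stand next to each other in the genome, with 0 protein-coding genes between them and *Irx6* as the next. Both are expressed in the neural tube, the heart, the limb buds and craniofacial mesenchyme, *Irx3* also in the lung and kidney and *Irx5* also in the retina. *Irx3*, by 1418517_at, gave 2776, 2744, 3421 and 3011. The whole-body arrays were level, and the wild-type head array was the highest. Hand2NC against wild-type gave a log2 ratio of -0.02 (0.11) at E11.5 and -0.18 (0.10) at E12.5, and head against whole body gave 0.30 (0.31) in wild-type and 0.13 (0.29) in Hand2NC.

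*Irx5*, by 1421072_at, gave 1104, 1140, 1255 and 909. The Hand2NC head array was the lowest of the 4 and the wild-type head array the highest, with both whole-body arrays between them. The log2 ratio of Hand2NC to wild-type was 0.05 (0.13) at E11.5 and -0.47 (0.14) at E12.5, where wild-type stood 1.38-fold above Hand2NC. Heads against bodies were at 0.19 (0.36) in wild-type and -0.33 (0.33) in Hand2NC. *Irx6* stayed below the array median on all 4 arrays, with signals of 96.7, 85.1, 65.3 and 60.2.

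*Nr2f1* and *Nr2f2* encode orphan nuclear receptors, also called COUP-TFI and COUP-TFII, which mark maxillary and frontonasal mesenchyme. *Nr2f1* is also expressed in the cortex, eye, inner ear and ganglia, and *Nr2f2* also in venous and lymphatic endothelium, the atria, the ventral forebrain, the limbs and much trunk mesenchyme. *Nr2f1*, by 1418157_at, gave 4024, 4670, 8135 and 7066. Hand2NC was the higher of the whole-body arrays and the lower of the head arrays, and both head arrays were above both whole-body arrays. Between genotypes the log2 ratio of Hand2NC to wild-type was 0.21 (0.12) at E11.5 and -0.20 (0.08) at E12.5, and head against whole body gave 1.02 (0.28) in wild-type and 0.60 (0.23) in Hand2NC.

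*Nr2f2* had 6 probe sets, and they did not give 1 answer. The brightest, 1416159_at, gave 2147, 2543, 2930 and 2606, with log2 ratios of Hand2NC to wild-type of 0.24 (0.12) at E11.5 and -0.17 (0.10) at E12.5. Probe set 1416158_at gave 496, 454, 630 and 738, with ratios of -0.13 (0.19) and 0.23 (0.16), the opposite sign at each stage. Of the 5 that passed the filter, 4 were higher and 1 lower in Hand2NC at E11.5, and 3 were higher and 2 lower at E12.5. The largest ratio above the filter at E11.5 was that of the dim *Nr2f2* probe set 1444229_at, with signals of 161, 250, 160 and 171 and a ratio of 0.63 (0.26). Its Hand2NC whole-body array stood apart from the other 3. Probe sets 1436475_at (773, 863, 1241 and 1289) and 1416160_at (452, 479, 647 and 619) were both higher in heads, and 1431237_at, between 17.9 and 52.1, was below the median throughout. No direction of change between genotypes can therefore be given for the gene as a whole.

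*Sim2* encodes a bHLH-PAS factor that is expressed in the palate and facial mesenchyme and also in the diencephalon, kidney tubules, limb muscle and vertebral region. It was the dimmest member: probe set 1419437_at gave 124, 101, 185 and 137, close to the array medians, and 1419438_at, between 27.7 and 38.2, was below them. The log2 ratio of Hand2NC to wild-type by the brighter was -0.29 (0.38) at E11.5, within the wide spread of signals this low, and -0.43 (0.31) in E12.5 heads. Against the whole body, the head was at 0.58 (0.52) in wild-type and 0.43 (0.50) in Hand2NC.

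*Uncx* encodes a paired-type homeodomain factor of the posterior part of each somite's sclerotome, and it is also found in the mesonephros, the midbrain and hypothalamus and the arches. Its probe set, 1419633_at, gave 279, 263, 577 and 398. Both head arrays were above both whole-body arrays, and the heads of the genotypes were set apart, with wild-type 1.45-fold above Hand2NC. Hand2NC against wild-type gave a log2 ratio of -0.08 (0.24) at E11.5 and -0.53 (0.19) in E12.5 heads, the lowest among the 15 probe sets above the filter. Against the whole body, the head was at 1.05 (0.38) in wild-type and 0.60 (0.39) in Hand2NC.

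*Hmx1* encodes a homeobox factor of the lateral facial mesenchyme that forms the outer ear, and it is also expressed in the eye and in the cranial, sensory and sympathetic ganglia. By 1422152_at it gave 141, 161, 185 and 256. The Hand2NC array was the higher at each stage and the Hand2NC head array stood above the other 3. The log2 ratio of Hand2NC to wild-type was 0.20 (0.30) at E11.5 and 0.47 (0.26) at E12.5, where Hand2NC stood 1.38-fold above wild-type, the highest ratio of the 15 probe sets there. Head against whole body was 0.40 (0.50) in wild-type and 0.67 (0.44) in Hand2NC.

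Set side by side, no member differed 2-fold between genotypes at E11.5. The number past 2-fold was 0 of 15 probe sets, against 0.693% of all 20485 probe sets above the filter, and the members' log2 ratios of Hand2NC to wild-type ran from -0.29 to 0.63. By the brightest probe set of each gene, *Nr2f1* and *Nr2f2* exceeded the local spread upward (2 of 10, against 16.0% of all genes) and *Lhx8* downward (1 of 10, against 17.4%). The median ratio of the 10 genes was -0.05, against -0.01 over all genes. Both counts are near the shares of all genes.

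At E12.5 no member differed 2-fold either, but most lay a little below wild-type. The number past 2-fold was 0 of 15 probe sets, against 0.766% of all 20367, and the ratios ran from -0.53 to 0.47. By the brightest probe set, 8 of the 10 genes (*Irx3*, *Irx5*, *Lhx8*, *Nr2f1*, *Nr2f2*, *Pou3f3*, *Sim2* and *Uncx*) were lower in Hand2NC beyond the local spread, against 16.6% of all genes, and *Hmx1* alone was higher, against 16.4%. *Nr2f2* counts here by its brightest probe set only, since 3 of its 5 probe sets above the filter were higher and 2 lower. The median ratio of the 10 was -0.19, against 0.00 over all genes. The members were chosen with earlier results of these data known. The study had taken up *Lhx8*, *Isl1*, *Irx5* and *Pou3f3* among homeobox factors altered in these mutants, and had also examined *Uncx* and *Hmx1*. The counts set against all genes are therefore not independent of how the list was chosen. By in situ hybridization at E12.5, the study reported weaker maxillary *Lhx8*, *Isl1* and *Irx5* and a loss of *Pou3f3* where the jaw processes meet. It saw no obvious difference for *Hmx1* in either process. Those are patterns in parts of the face, whereas the ratios here are of whole heads. The arrays behind the comparisons at E11.5 and E12.5 are different ones, and of the 8 genes *Lhx8* alone was also lower beyond the local spread at E11.5. Over 5 ways of scaling the arrays, the E12.5 ratio stayed between -0.53 and -0.48 for *Uncx*, -0.47 and -0.41 for *Irx5*, -0.26 and -0.20 for *Lhx8* and 0.47 and 0.52 for *Hmx1*. Smaller ratios came closer to their spread, with -0.18 to -0.11 for the brightest *Nr2f2* probe set and -0.14 to -0.07 for *Pou3f3*. With each array centred on its median, *Pou3f3* was no longer lower beyond the local spread.

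**Figure D2:**
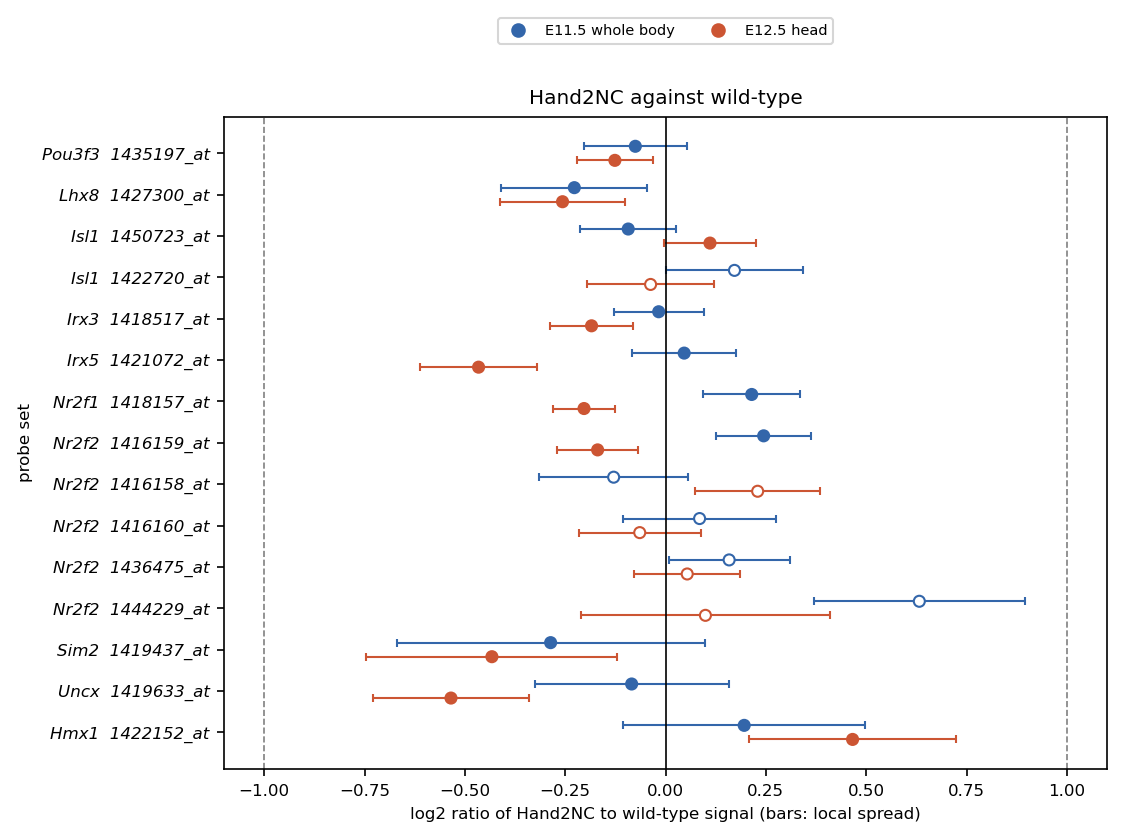
Log2 ratio of Hand2NC to wild-type signal at E11.5 and E12.5 for each member, with filled points for the brightest probe set, open points for the others above the filter, bars for the local spread and dashed lines at a 2-fold difference. No point passes 2-fold, and at E12.5 *Uncx* (-0.53) and *Hmx1* (0.47) mark the ends of the range.

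Because most members are also expressed in the brain, marker genes of other tissues were read beside the E12.5 difference. Genes of the telencephalon and cortex were somewhat lower in the Hand2NC head as well, with a median log2 ratio of -0.18, and beyond the local spread 5 of 10 were lower and 0 higher. Among them were *Neurod6*, a gene of young cortical neurons (1297 in wild-type and 944 in Hand2NC, ratio -0.46), and *Six3*, a factor of the anterior forebrain and eye (625 and 468, -0.42). The summed signal of the 10 genes was 11553 in the wild-type head and 10210 in the Hand2NC head, and none of the 10 was below the array median on either. The median ratio was -0.07 for basal forebrain neurons (0 higher and 2 lower of 8, summed signal 4689 and 4434), -0.02 for eye and lens (1 higher and 2 lower of 6, 4758 and 4624) and -0.07 for sensory ganglion neurons (0 higher and 1 lower of 5, 1923 and 1837). Lists of other tissues lay on both sides of 0, and over all genes 16.4% were higher and 16.6% lower beyond the local spread. The median was -0.12 for erythroid cells (2 higher and 3 lower of 5, summed signal 55642 and 52294), -0.10 for hypothalamus and pituitary (0 higher and 2 lower of 4, 2093 and 2039) and -0.08 for mesonephros and kidney (1 higher and 3 lower of 7, 4935 and 4789). It was 0.14 for skeletal muscle (4 higher and 2 lower of 9, 5755 and 6066), 0.11 for sclerotome and somite genes (2 higher and 1 lower of 7, 3254 and 3340), 0.09 for inner ear (0 higher and 1 lower of 4, 2662 and 2690) and 0.04 for endothelium (2 higher and 1 lower of 10, 6408 and 6746). The mesonephros and kidney list shares genes with other lists, such as *Gata3* with inner ear, and is not a measure of kidney tissue in heads. The basal forebrain list holds *Lhx6*, *Dlx1* and *Dlx2*, which are also arch factors. The part of brain tissue in the members' E12.5 ratios was not tested. At E11.5 the telencephalon median was -0.10, and the summed signal was 5180 in wild-type and 5040 in Hand2NC. Beyond the local spread there, 2 of 10 genes were lower and 0 higher, against 17.4% and 16.0% of all genes.

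Close relatives of the members behaved unevenly. The list held 25 other genes of the POU class 3, LIM homeodomain, Iroquois, nuclear receptor and neighbouring families, 22 with a probe set. At E12.5, 16 passed the filter, 0 were past 2-fold, and the median log2 ratio was -0.14. Beyond the local spread, 2 were higher in Hand2NC and 6 lower, against 16.4% and 16.6% of all genes. *Irx4*, another Iroquois gene, gave -0.52 (134 in wild-type and 93.8 in Hand2NC), *Irx2* -0.46 (791 and 576), *Pou3f4*, of the ear mesenchyme and forebrain, -0.41 (447 and 336), and *Lhx6*, which acts beside *Lhx8* in oral mesenchyme and basal forebrain, -0.40 (307 and 233). Of the other Iroquois genes above the filter, *Irx5* was near these at -0.47, *Irx3* was at -0.18 and *Irx1* was at 0.10. At E11.5, 14 relatives passed, 2 were higher beyond the local spread (*Npas3*, 0.34, and *Isl2*, 0.33) and 0 were lower, against 16.0% and 17.4% of all genes.

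Factors that pattern the arch were read from a further list of 40, of which 35 had a probe set. It holds *Hand2* itself, shares *Lhx6* with the list of relatives, and shares *Lhx6*, *Dlx1* and *Dlx2* with the basal forebrain list. At E12.5, 30 passed the filter, for a median log2 ratio of -0.08. Beyond the local spread, 4 were higher in Hand2NC (*Hand2* by probe set 1436041_at, *Gsc*, *Pitx1* and *Dlx5*), against 16.4% of all genes. Below wild-type by more than the spread were 9 (*Osr2*, *Runx1*, *Dlx6*, *Lhx6*, *Tbx2*, *Tbx3*, *Barx1*, *Msx1* and *Msx2*), against 16.6%. *Dlx5* and *Dlx6* thus went opposite ways, at 0.17 and -0.46. *Gsc*, a homeobox gene of the mandibular arch, was past 2-fold (156 in wild-type and 320 in Hand2NC, ratio 1.03), and *Pitx1*, of the mandibular mesenchyme and oral ectoderm, was next (323 and 581, 0.85). *Osr2*, of the palatal shelves, lay lower (135 and 77.4, -0.80), as did *Runx1* (122 and 77.3, -0.66). At E11.5, 28 passed, 0 were past 2-fold, and 7 were higher and 5 lower beyond the local spread, against 16.0% and 17.4% of all genes. There *Runx1* gave 0.88, *Foxf1* 0.51, *Meis2* 0.50 and *Tbx22*, a T-box gene of the palate, -0.41. *Runx1* thus had opposite signs at the stages. Its signals were near the array median (79.4 in wild-type and 146 in Hand2NC at E11.5), and the lower of each pair was below it.

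Heads at E12.5 were then set against whole bodies at E11.5 within each genotype. Stage and tissue change together in this comparison and cannot be told apart, and it uses the same 4 arrays as the genotype ratios, so that the gap between a gene's head ratios in Hand2NC and wild-type is the gap between its genotype ratios. In wild-type, 4 of 15 member probe sets were more than 2-fold higher in the head (*Lhx8*, *Uncx*, *Pou3f3* and *Nr2f1*), against 4.45% of all 20790 probe sets, and 0 were 2-fold lower, against 2.32%. *Uncx* (2.07-fold), *Pou3f3* (2.03-fold) and *Nr2f1* (2.02-fold) lay just past the cutoff, and with each array centred on its median, which moves all ratios of the wild-type comparison by -0.12, *Lhx8* alone was past it. In Hand2NC, *Lhx8* was the 1 member past 2-fold, against 2.56% of all 20682 probe sets, and 0 were 2-fold lower, against 2.19%. *Lhx8* was therefore past the cutoff in both genotypes, as were 1.59% of all probe sets that passed both filters.

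Beyond the local spread, 6 of the 10 genes were higher in wild-type heads (*Lhx8*, *Nr2f1*, *Nr2f2*, *Pou3f3*, *Sim2* and *Uncx*), against 21.0% of all genes. In Hand2NC heads, 5 of the 10 were (*Hmx1*, *Lhx8*, *Nr2f1*, *Pou3f3* and *Uncx*), against 20.8%, and 0 were lower in wild-type or in Hand2NC, against 16.4% and 15.0%. The median ratio of the 10 was 0.51 in wild-type and 0.52 in Hand2NC, against 0.03 and 0.04 over all genes. By the brightest probe set of each gene, both head arrays stood above both whole-body arrays for 8 genes, with *Irx5* and *Isl1* as the others. The share of all genes in this order was not computed. Of probe sets above both filters, 11 of 15 for the members were higher in the head within each genotype, against 8122 of all 20172. Some differences were small, such as the Hand2NC head ratios of *Nr2f2* at 0.03 (0.29) and *Irx3* at 0.13 (0.29). The head ratio was lower in Hand2NC than in wild-type by 0.51 for *Irx5*, 0.45 for *Uncx*, 0.42 for *Nr2f1* and 0.41 for the brightest *Nr2f2* probe set, and the gap was -0.03 for *Lhx8*, -0.05 for *Pou3f3*, -0.15 for *Sim2* and -0.17 for *Irx3*. It ran the other way for *Hmx1* (0.27), for *Isl1* by its brighter probe set (0.20, against -0.21 by the dimmer) and for *Nr2f2* by 1416158_at (0.36).

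**Figure D3:**
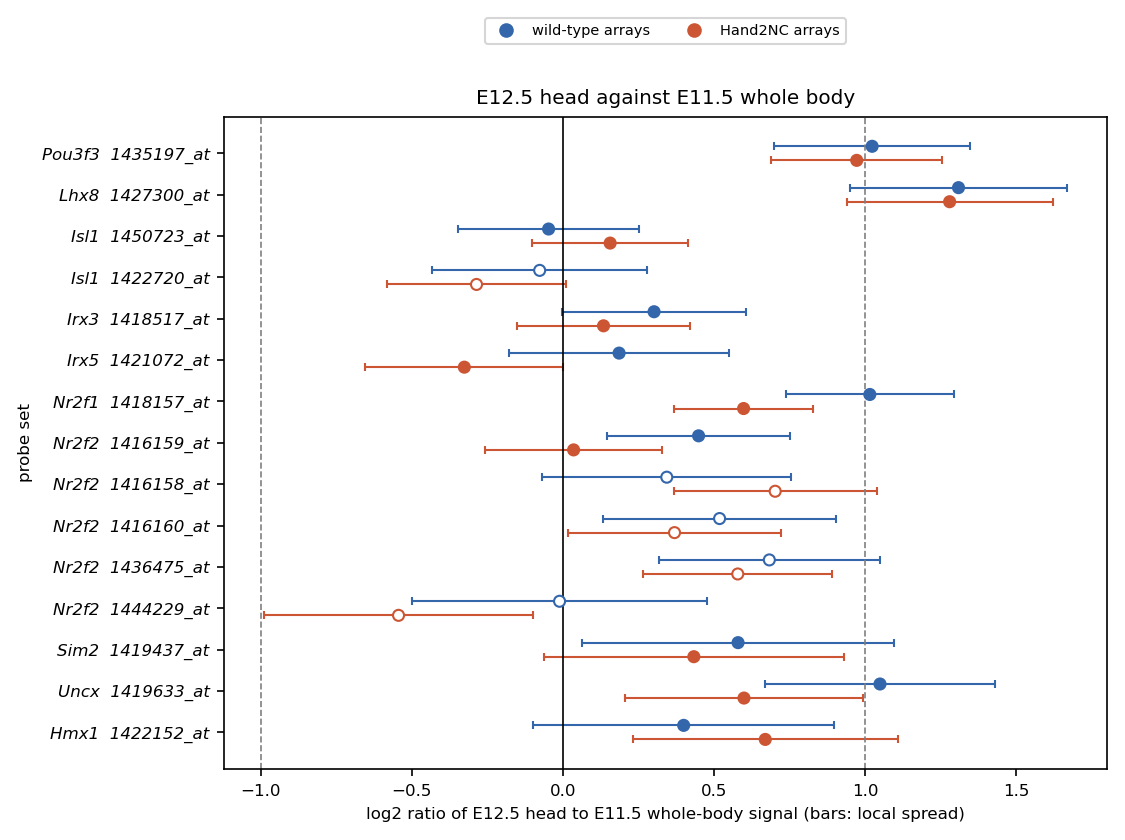
Log2 ratio of E12.5 head to E11.5 whole-body signal for each member in wild-type and in Hand2NC, with bars for the local spread and dashed lines at a 2-fold difference; filled points are the brightest probe set of each gene and open points the others above the filter. *Lhx8* (1.31 and 1.28) sits at the top in both genotypes, *Uncx* (1.05) and *Pou3f3* (1.02) follow in wild-type, and *Isl1* and *Irx5* lie about 0.

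The tissues that also express the members moved in both directions between these samples. Genes of trunk organs were far lower on the head arrays, and the median log2 ratio of head to whole body in wild-type was -5.43 for liver genes (10 of 11 lower by 2-fold), -3.78 for hindlimb and trunk position genes (11 of 12) and -2.79 for heart muscle (15 of 16). *Isl1*, which is used in heart precursors and hindlimb as well as in neurons, was level across this divide. Brain and eye genes were higher in the head, with a median of 1.06 for telencephalon and cortex (6 of 10 higher by 2-fold), 1.35 for basal forebrain neurons (6 of 8) and 1.82 for eye and lens (4 of 6), and *Neurod6* alone gave 2.56. The median was 0.53 for sensory ganglion neurons, 0.97 for inner ear, 0.58 for mesonephros and kidney genes and -0.18 for sclerotome and somite genes. Of the kidney list, 5 of 8 genes were higher and 2 lower beyond the local spread, against 21.0% and 16.4% of all genes. They ran from *Lhx1* (1.06) and *Gata3* (1.04) to *Cited1* (-1.04) and *Wt1* (-3.16). *Gata3* is also in the inner ear list, *Lhx1* among the relatives, and *Six2* and *Osr1* among the arch factors. The kidney median is therefore not a measure of kidney tissue. For *Lhx8*, 1.31 lay near the median of the basal forebrain list, which includes its relative *Lhx6* (1.60). *Lhx6*, *Dlx1* (1.63) and *Dlx2* (1.33) of that list are also among the arch factors. The basal forebrain median is therefore not a measure of brain tissue alone. For *Uncx*, 1.05 stood beside -0.18 for the sclerotome list, which marks its best-known site in the trunk. In Hand2NC the corresponding medians were -4.91 for liver, -4.21 for hindlimb and trunk position, -2.74 for heart muscle, 1.09 for telencephalon and cortex, 1.05 for basal forebrain neurons and 1.47 for eye and lens. What portion of any member's signal came from the arch rather than these tissues was not tested.

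**Figure D4:**
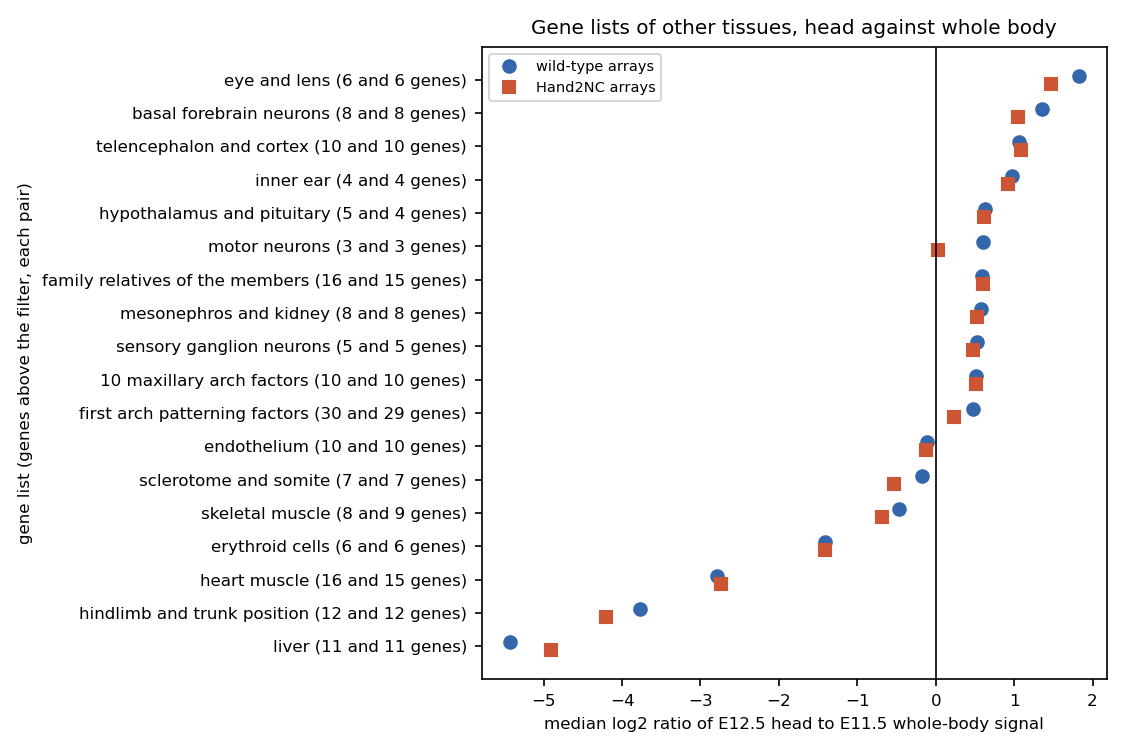
Median log2 ratio of E12.5 head to E11.5 whole-body signal for each gene list and for the 10 members, with circles for the wild-type arrays and squares for the Hand2NC arrays and, in parentheses, the number of genes above the filter in each. Liver (-5.43 in wild-type), trunk position (-3.78) and heart lists lie far below 0 in the head comparison and the forebrain and eye lists above it, with the members (0.51) between.

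The genes whose profile over the 4 arrays was most like that of a member were found by the distance between log2 signals centred on their own mean, over 11409 genes. *Pou3f3* was nearest to *Igfbpl1* (distance 0.03), *Id4* and *Elavl3*. *Lhx8* was nearest to *Nrxn3* (0.04), *Cacna2d2* and *Fezf2*, and *Nr2f1* to *Ebf1* (0.03), *Sema4a* and *Cnr1*. *Uncx* was nearest to *Dagla* (0.05), *Lmcd1* and *Hivep3*, and *Hmx1* to *Rassf2* (0.08), *Zfp691* and *Mapk4*. With 4 points per profile, this likeness is a description only.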

How the data were processed

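Total RNA from pooled wild-type and Hand2NC embryos was hybridised to 4 single-colour Affymetrix mouse genome arrays, 1 per genotype and stage. The authors deposited MAS5 signals, a linear intensity per probe set without detection calls, for 45101 probe sets, of which 64 are controls. MAS5 is named without a version in the submitters' processing notes. The trimmed mean of the deposited intensity was 498 on each array. Precision is limited by the number of arrays.

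Controls were dropped, signals were multiplied per array to give a 2% trimmed mean of 500, and log2 ratios were taken between single arrays. Gene names came from the platform annotation: 34945 had 1 symbol, 932 had several and 9160 had none, and of the first, 34741 gene identifiers were found in the RefSeq table (GRCm38.p6) and 0 symbols changed. A probe set was counted where the brighter array was at or above its median. Lists were read by the brightest probe set of each gene, and up to 4 members of a list with the largest log2 ratio were named per comparison. For the arch factors at E12.5, all genes beyond the local spread were also named. Other genes named beside a member (*Irx1*, *Irx6*) were chosen after their values were seen. The members and gene lists were chosen with earlier results of these data known. The counting was tested on simulated data. Other settings were unscaled deposited values, centring on the median, quantile normalization and loess (span 0.3), other filters, dim values raised to the median, and other choices of probe set. Counts beyond the local spread under each scaling were added once the data had been seen. The software was Python 3.11.15 with pandas 2.3.3, numpy 2.4.6, statsmodels 0.14.6 and matplotlib 3.10.9.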

Additional observations from a re-analysis of the deposited data

Results flagged for a closer look

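The single *Nr2f1* probe set and the brightest *Nr2f2* probe set, of the COUP-TF genes, lay on opposite sides of wild-type at the 2 stages, each time beyond the local spread. For *Nr2f2* by probe set 1416159_at the log2 ratio of Hand2NC to wild-type was 0.24 at E11.5 and -0.17 at E12.5, and for *Nr2f1* by 1418157_at it was 0.21 and -0.20. The difference between the stages was not tested, since each value comes from 1 array against 1 array, and tissue differs between the stages too. The other *Nr2f2* probe sets above the filter did not share this pattern beyond their spread: 1416158_at gave -0.13 and 0.23, 1436475_at 0.16 and 0.05, 1444229_at 0.63 and 0.10, and 1416160_at 0.085 and -0.06.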

How the results depend on the processing

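No paired analysis was possible because each group has 1 array and the labels give no replicate numbers, and no array could be left out in turn. Of 728 recomputed log2 ratios of single member probe sets, 718 moved by less than the local spread, 8 moved by more, and 2 that exceeded it changed sign. At E12.5, 1 member probe set was past 2-fold with no filter (against 14.5% of all) and 1 gene with the mean over probe sets (against 1.95%), in both cases *Pou3f3* through the dim probe set 1422331_at, whose ratio was -0.06 once dim values were set to the array median. The sign changes came with the mean over probe sets, which gave *Nr2f2* 0.086 at E12.5 and *Pou3f3* -0.39 for the Hand2NC head against whole body, again through 1422331_at. In the comparison of head with whole body, 1 member was past 2-fold in wild-type with median centring (against 6.19%), and 2 of 18 were in Hand2NC with no filter (against 17.4%). The members' median head ratio in Hand2NC was 0.16 over the 7 genes left by a filter at the 75th percentile. Among the counts beyond the local spread, added after the data were seen, median centring gave 3 of 10 genes lower at E11.5 (*Isl1*, *Lhx8* and *Pou3f3*, against 29.1% of all genes). At E12.5 it gave 2 higher (*Hmx1* and *Isl1*, against 27.8%) and 7 lower (against 10.4%), with *Pou3f3* no longer among the lower genes. Median centring, quantile normalization and loess each gave 1 gene, *Irx5*, lower in the Hand2NC head than in the whole body, against 15.4%, 15.7% and 16.1% of all genes. Under each of these settings *Sim2* was no longer higher in the wild-type head beyond the local spread. Median centring left 5 genes higher there (against 14.8%). Quantile normalization and loess gave 6, with *Irx3* in place of *Sim2* (against 18.3% and 18.4%). The cause of these shifts was not tested beyond the settings' own construction. Of the ratios between genotypes, that of *Irx5* at E11.5 lay between -0.01 and 0.05 over the scalings. Most differences reported are under 2-fold and rest on single arrays of mixed tissue. Signals near the array median are the least precise, such as those of *Sim2* and *Hmx1* and, in the other lists, *Runx1*, *Osr2* and *Irx4*.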

Other observations

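The profile over the 4 arrays nearest to *Isl1* was that of *Park7* (distance 0.0019 on the log2 scale), followed by *Htt* and *Ube2c*. For *Irx3* the nearest were *Frmd4a* (0.02), *Zfp369* and *Atp6v1b2*, and for *Irx5* they were *Adcy4* (0.03), *Ttc7b* and *Epdr1*. *Adcy4* gave signals of 168, 177, 192 and 142, with the Hand2NC head array lowest as for *Irx5*. For *Nr2f2* by its brightest probe set the nearest were *Fam120b* (0.03), *Erc1* and *Cdk14*. *Sim2* was nearest to *Tcerg1l* (0.06), 2610035D17Rik and *Hmgcll1*. Among marker genes of tissues that use the members, some were lower in Hand2NC. *Pax1*, a sclerotome and pharyngeal pouch gene, gave 296 in wild-type and 198 in Hand2NC at E12.5 (log2 ratio -0.58). *Tbx15*, of limb and facial mesenchyme, gave 924 and 657 there (-0.49). *Eomes*, of cortical progenitors, gave 352 and 225 at E11.5 (-0.65). Others were higher at E12.5, such as *Crygd* of the eye and lens list (199 and 301, 0.60) and *Emcn* of the endothelium list (609 and 802, 0.40). *Pax1* was the 1 sclerotome gene lower beyond the local spread at E12.5, where 2 of 7 were higher.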
